A study of Homo sapiens with 4 samples.

Results

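The genes described here encode the human integrin subunits and the laminin chains, measured in the glioma cell line U87MG with or without a vector for the microRNA miR-490. They were chosen by gene symbol, with earlier results of these data known. Taken were the integrin alpha and beta subunits and laminin alpha, beta and gamma chains with a probe set annotated to a single gene. Of 38 such genes, 35 were measured, among 18132 genes in all, with 25 integrin and 10 laminin genes. The other 3 were not analysed here; among them, ITGB6 was carried only by probe sets shared between several gene symbols. The 35 genes had 101 probe sets, and each gene was represented by its brightest set, judged by the mean of all 4 arrays.

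U87MG is an established human glioma line that grows attached to the dish. Both groups were U87MG cells, and both received a plasmid: the control group had the empty vector PCDNA3.1(+) and the other group had PC-490, made to overexpress miR-490. RNA was taken 48 h after transfection. Each group had 2 arrays, and the labels do not say whether these came from separate cultures, so the p-values measure the spread between arrays, which may be technical. The labels describe no selection of transfected cells, and the level of the mature microRNA was not analysed here. The RNA came from whole wells, so less RNA per cell and fewer cells carrying a transcript cannot be told apart.

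Integrins are cell surface receptors made of 1 alpha and 1 beta subunit. They bind proteins of the extracellular matrix or of neighbouring cells on the outside and, through adaptor proteins such as talin and kindlin, the actin cytoskeleton on the inside. Laminins are secreted as trimers of 1 alpha, 1 beta and 1 gamma chain and are a main component of basement membranes, including those around the blood vessels of the brain. Gliomas are known to migrate along such vessels and to use integrins in doing so.

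The vector is named for a single microRNA gene on chromosome 7, whose hairpin gives 2 mature strands. Their sequences from the RefSeq annotation of GRCh38.p14 are shown because the seed (bases 2 to 8, in capitals) is the stretch through which a microRNA mainly recognises its targets. Both lie on the plus strand, at chr7:136903205-136903224 for the 5p strand and chr7:136903242-136903263 for the 3p strand.
hsa-miR-490-5p: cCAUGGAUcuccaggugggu
hsa-miR-490-3p: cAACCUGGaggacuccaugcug
The seeds of the 5p and 3p strands differ. No search for such sites was made in the integrin and laminin transcripts.

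Values are log2 expression per probe set. The 4 arrays were alike: their medians lay between 5.15 and 5.17, and the correlation across genes (which are not independent replicates) was 0.998271 for the 2 control arrays, 0.998451 for the 2 miR-490 arrays and between 0.998156 and 0.998414 across groups. As a yardstick for background, the 333 measured olfactory receptor genes, a family mostly silent outside sensory tissue, were used. Their 95th percentile lay between 4.17 and 4.298 on the 4 arrays and their 99th percentile between 6.1816 and 6.312. A gene above the 99th percentile on all 4 arrays is called clearly above background, a gene above the 95th on all 4 but not the 99th intermediate, and any other at background. Probe sets differ in how brightly they report the same amount of RNA, so the brightness of different genes is not ranked.

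By this yardstick 23 of the 35 genes were above background, and 17 of these were clearly so. Those shares, 65.7% and 48.6%, lay near the 63.7% and 44.6% of all genes. The clear genes were 12 integrin subunits and 5 laminin chains. The other 6 above background were intermediate, and 12 were at background. With keratin-associated protein genes in place of olfactory receptors, 13 genes were above background, so some genes called clear here were not. Markers of other cell types also fell in the intermediate band, among them the platelet gene GP9 (4.96 to 5.21), the endothelial gene VWF (5.16 to 5.43) and the epithelial keratin gene KRT5 (4.69 to 5.08). An intermediate level is therefore not read as a sign of expression.

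Markers of glioma and mesenchymal lines were also read, of which 5 of 8 were clear, 1 was intermediate and 2 were at background. The glial genes among them, GFAP and OLIG2, were not clear, so the list does not settle the glioma label. VIM, the intermediate filament protein of mesenchymal cells, was at 13.90 to 13.92, and CD44, CHI3L1, S100A6 and TGFBI were also clear. The astrocyte filament gene GFAP was intermediate at 5.56 to 5.81. NES, at no more than 4.30, and the glial transcription factor gene OLIG2, at 3.59 to 3.75, were at background. Among markers of other cells, the pan-leukocyte gene PTPRC lay at 2.43 to 2.62 and the endothelial cadherin gene CDH5 at 3.07 to 3.17. The epithelial adhesion gene EPCAM lay at 3.48 to 3.91, and these genes were all at background. Other markers were not: the leukocyte gene LCP1 was clear at 7.69 or more, and CORO1A, VWF, KRT5 and KRT14 were intermediate. Above background were 2 of 6 leukocyte, 1 of 5 endothelial and 2 of 4 epithelial markers.

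**Figure D1:**
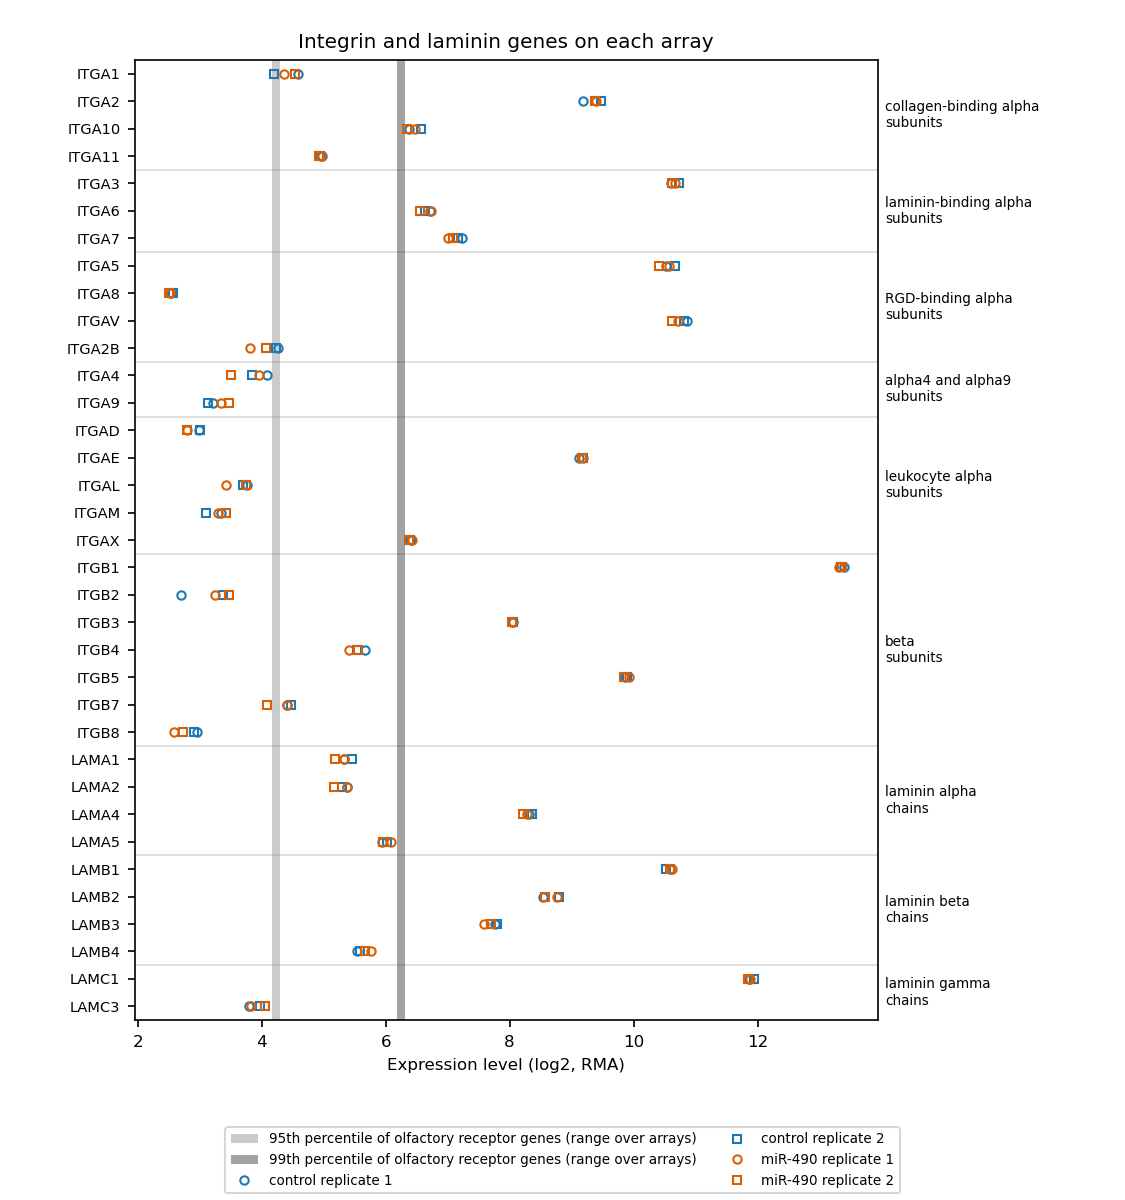
Level of each of the 35 integrin and laminin genes on each of the 4 arrays (log2 expression, horizontal axis; 1 gene per line, grouped by role), with the background levels drawn from olfactory receptor genes. The 17 clear genes lie right of the 99th percentile on every array, while 12 genes reach down into the background range.

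Among the alpha subunits that bind collagen, ITGA2 and ITGA10 were clear. ITGA2, whose product pairs with beta1 as a receptor for fibrillar collagen, read 9.19 and 9.47 on the control arrays and 9.39 and 9.38 on the miR-490 arrays. ITGA10, a collagen receptor subunit best known from cartilage, read 6.38 and 6.57 in controls and 6.47 and 6.35 with miR-490. The last value lay close to the 99th percentile of that array, 6.2804. The other ITGA10 sets had mean levels of 5.5475, intermediate, and 3.0875, at background. The miR-490 arrays lay within the control range for ITGA2 and overlapped it for ITGA10. ITGA11, a fibroblast collagen receptor subunit, was intermediate at 4.92 to 4.97 on the 4 arrays. ITGA1 was at 4.19 to 4.58 and missed the intermediate band on the second control array alone.

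All 3 measured alpha subunits known mainly as laminin receptors were clear. ITGA3, a subunit of a laminin receptor of epithelial and many cultured cells, read 10.60 and 10.74 in controls and 10.66 and 10.62 with miR-490. ITGA6, which pairs with beta1 or beta4 and is widely used as a marker of stem-like glioma cells, read 6.71 and 6.64 in controls and 6.73 and 6.55 with miR-490. The other ITGA6 sets had mean levels of 5.11 and 3.6925, so the clear call rests on the brightest set. ITGA7, the main laminin receptor subunit of muscle, read 7.23 and 7.17 in controls and 7.01 and 7.09 with miR-490. Of these subunits, the groups were apart for ITGA7 and overlapped for ITGA3 and ITGA6.

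Alpha subunits that recognise the Arg-Gly-Asp motif of fibronectin and vitronectin were either clear or at background. ITGAV, the alpha subunit shared by the vitronectin receptors, read 10.86 and 10.82 in controls and 10.71 and 10.62 with miR-490. Both miR-490 arrays lay below both control arrays. ITGA5, which with beta1 forms the classical fibronectin receptor, read 10.52 and 10.67 in controls and 10.57 and 10.41 with miR-490, and the groups overlapped. ITGA8 (2.50 to 2.57) and the platelet subunit ITGA2B (3.81 to 4.27) were at background, as were ITGA4 (3.50 to 4.09) and ITGA9 (3.13 to 3.47), 2 subunits that bind the vascular adhesion molecule VCAM1.

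The alpha subunits best known from leukocytes were at background except ITGAE and ITGAX. ITGAE, the subunit that lets lymphocytes bind E-cadherin, read 9.12 and 9.18 in controls and 9.18 and 9.16 with miR-490. ITGAX, a subunit of complement receptors on myeloid cells, read 6.41 and 6.40 in controls and 6.43 and 6.37 with miR-490. The set that represents ITGAX carries the suffix with which the manufacturer marks sets holding some probes that can also match other sequences, and the other 3 ITGAX sets had mean levels of 3.362 to 3.978, at background. ITGAD, ITGAL and ITGAM were at background by their brightest sets. In the RefSeq gene table ITGAM, ITGAX and ITGAD are direct neighbours on chromosome 16, with 0 protein-coding genes between them.

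Of the beta subunits, ITGB1, ITGB3 and ITGB5 were clear. ITGB1, the common partner of most alpha subunits, read 13.39 and 13.34 in controls and 13.31 and 13.36 with miR-490. ITGB3, which joins alphaV in a vitronectin receptor that endothelial and tumour cells use, read 8.06 and 8.05 in controls and 8.04 and 8.04 with miR-490. ITGB5, another partner of alphaV, read 9.86 and 9.90 in controls and 9.93 and 9.85 with miR-490. The groups overlapped for ITGB1 and ITGB5, while those of ITGB3 were apart by no more than the second decimal. ITGB4, the hemidesmosome subunit that pairs with alpha6, was intermediate at 5.66 and 5.53 in controls and 5.40 and 5.56 with miR-490, again by a set that may share probes with other sequences. At background were the leukocyte subunits ITGB2 (2.69 to 3.48) and ITGB7 (4.09 to 4.47) and ITGB8 (2.59 to 2.96), the alphaV partner that takes part in activating TGF-beta.

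An integrin needs both subunits, so the genes were read against a list of 24 known pairs. Both subunits were above background in 11 pairs, 8 of them with ITGB1, and clearly so in 9: ITGB1 with ITGA2, ITGA3, ITGA5, ITGA6, ITGA7, ITGA10 and ITGAV, and ITGAV with ITGB3 and ITGB5. These pairs cover collagen, laminin, fibronectin and vitronectin as ligands. In the other 2, ITGA11 with ITGB1 and ITGA6 with ITGB4, 1 subunit was intermediate. At least 1 subunit was at background in 12 pairs, and 1 pair, ITGAV with ITGB6, was not evaluated. ITGAE was clear while its only listed partner ITGB7 was at background, and ITGAX was clear while its partner ITGB2 was at background. Transcript levels do not show which pairs were on the cell surface.

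**Figure D2:**
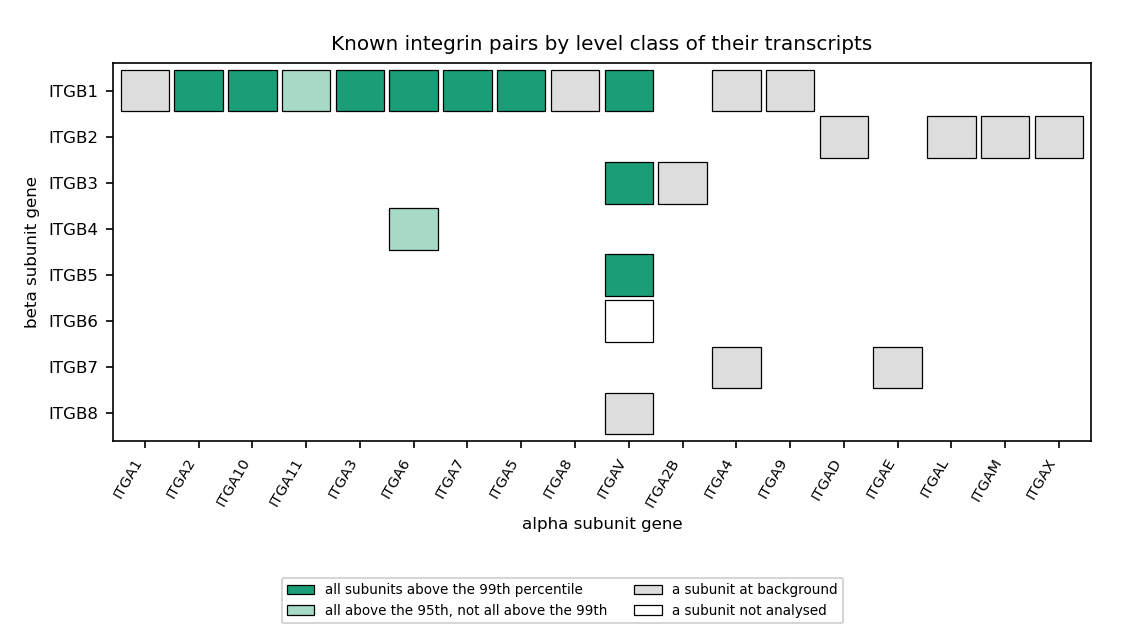
The 24 integrin pairs by alpha subunit (horizontal axis) and beta subunit (vertical axis), each marked by the lower level class of its 2 subunits on all 4 arrays. The 9 clear pairs lie in the lines of ITGB1 (7 pairs), ITGB3 and ITGB5 (1 each, both with ITGAV), and the listed pairs of ITGB2, ITGB7 and ITGB8 have a subunit at background.

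Among the laminin alpha chains, which carry the main integrin-binding domain, LAMA4 alone was clear. LAMA4, the alpha chain of blood vessels and mesenchymal cells, read 8.31 and 8.36 in controls and 8.28 and 8.22 with miR-490, without overlap. LAMA1 (5.19 to 5.46), LAMA2 (5.16 to 5.38) and LAMA5 (5.94 to 6.08), the chains of embryonic, muscle and general adult basement membranes, were intermediate. The measured beta chains had 3 clear members. LAMB1, the most widespread beta chain, read 10.59 and 10.53 in controls and 10.62 and 10.58 with miR-490. LAMB2, the chain of synaptic and vascular basement membranes, read 8.54 and 8.80 in controls and 8.76 and 8.57 with miR-490. LAMB3, known from the skin, read 7.76 and 7.80 in controls and 7.58 and 7.70 with miR-490. Of these, the miR-490 arrays lay below the controls for LAMB3, and the groups overlapped for LAMB1 and LAMB2. LAMB4 was intermediate at 5.54 and 5.58 in controls and 5.77 and 5.66 with miR-490, with both miR-490 arrays higher. It is the neighbour of LAMB1 on chromosome 7, with 0 protein-coding genes between them.

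LAMC1, the gamma chain of most laminins, was clear at 11.86 and 11.95 in controls and 11.87 and 11.84 with miR-490, and the groups overlapped. LAMC3 was at background at 3.79 to 4.05. Read against 14 known trimers, 2 had all chains clear: laminin 411 and laminin 421, which combine LAMA4 with LAMB1 or LAMB2 and with LAMC1. In 6 more (111, 121, 211, 221, 511 and 521) the alpha chain was intermediate and the other chains clear. The 3 trimers with LAMC3 had a chain at background, and the 3 that contain LAMA3 were not evaluated.

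Promoters were matched by symbol in the RefSeq promoter table of GRCh38.p14 for 24 of the 35 genes, using the 250 bases upstream of the start. The number of CG dinucleotides had a median of 18 (1 to 32) in the 13 clear genes and 16 (2 to 25) in the 7 background genes, so the ranges overlapped. Over the 14425 measured genes with a promoter the median was 20. The GC box letters GGGCGG, on either strand, stood in 9 of the 13 clear and 3 of the 7 background genes, in 54.2% of the 24, in 61.4% of the 14425 measured genes and in 44.9% of all 27305 promoters. The letters TATAAA, on either strand, were in 0 of the 24, in 8.17% of the measured genes and in 10.7% of all promoters. These are matches of letters and not evidence of binding.

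The comparison asked whether the miR-490 vector altered any of these transcripts. None passed the threshold: with limma and Benjamini-Hochberg adjustment over all genes, 0 of 35 had an adjusted p under 0.05, as did 0% of the 18132 genes, none of which had an adjusted p below 0.785. Before adjustment, 5 of 35 (14.3%) had a p under 0.05, against 6.19% of all genes. That count was 0 when a gene's probe sets were averaged (5.29% of all genes) and 3 with an intensity trend (6.04% of all genes). Of the 5, 4 were lower with miR-490 (2.88% of all genes were) and 1 was higher (3.31%). ITGAV was the single one above background, 4.35% of the 23 such genes, beside the 6.19% of all genes. The other 4, ITGA2B, ITGAD, ITGB8 and ITGA9, were among the 12 genes at background (33.3% of them). Of the 333 olfactory receptor genes, 320 of which were at background, 36 (10.8%) had an unadjusted limma p under 0.05. With 2 arrays against 2, an exact two-sided permutation test of a single gene cannot give a p below 0.333.

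In direction, 24 of the 35 genes had a lower mean with miR-490 (68.6%) against 47.3% of all genes, with 18 of 25 integrin and 6 of 10 laminin genes lower. The median log2 fold change was -0.035 beside 0.005 over all genes. These genes share 4 RNA samples and are not independent replicates of the treatment, and no test was made of the list. Without overlap between groups were 11 of 35 (31.4%) against 32.6% of all genes, 9 with miR-490 below (16.1% of all genes) and 2 with miR-490 above (16.5%). For the 17 clear genes the log2 fold changes lay between -0.175 and 0.055. Their 95% confidence intervals together spanned -0.346 to 0.342, a range of 0.787 to 1.27 in fold. A change beyond those bounds lies outside every interval of the brightest sets, while smaller changes were not resolved by these arrays. Some other sets above background had wider intervals, such as -0.765 to 0.865 for an ITGA5 set. As the arrays may be technical repeats, larger changes are not excluded.

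**Figure D3:**
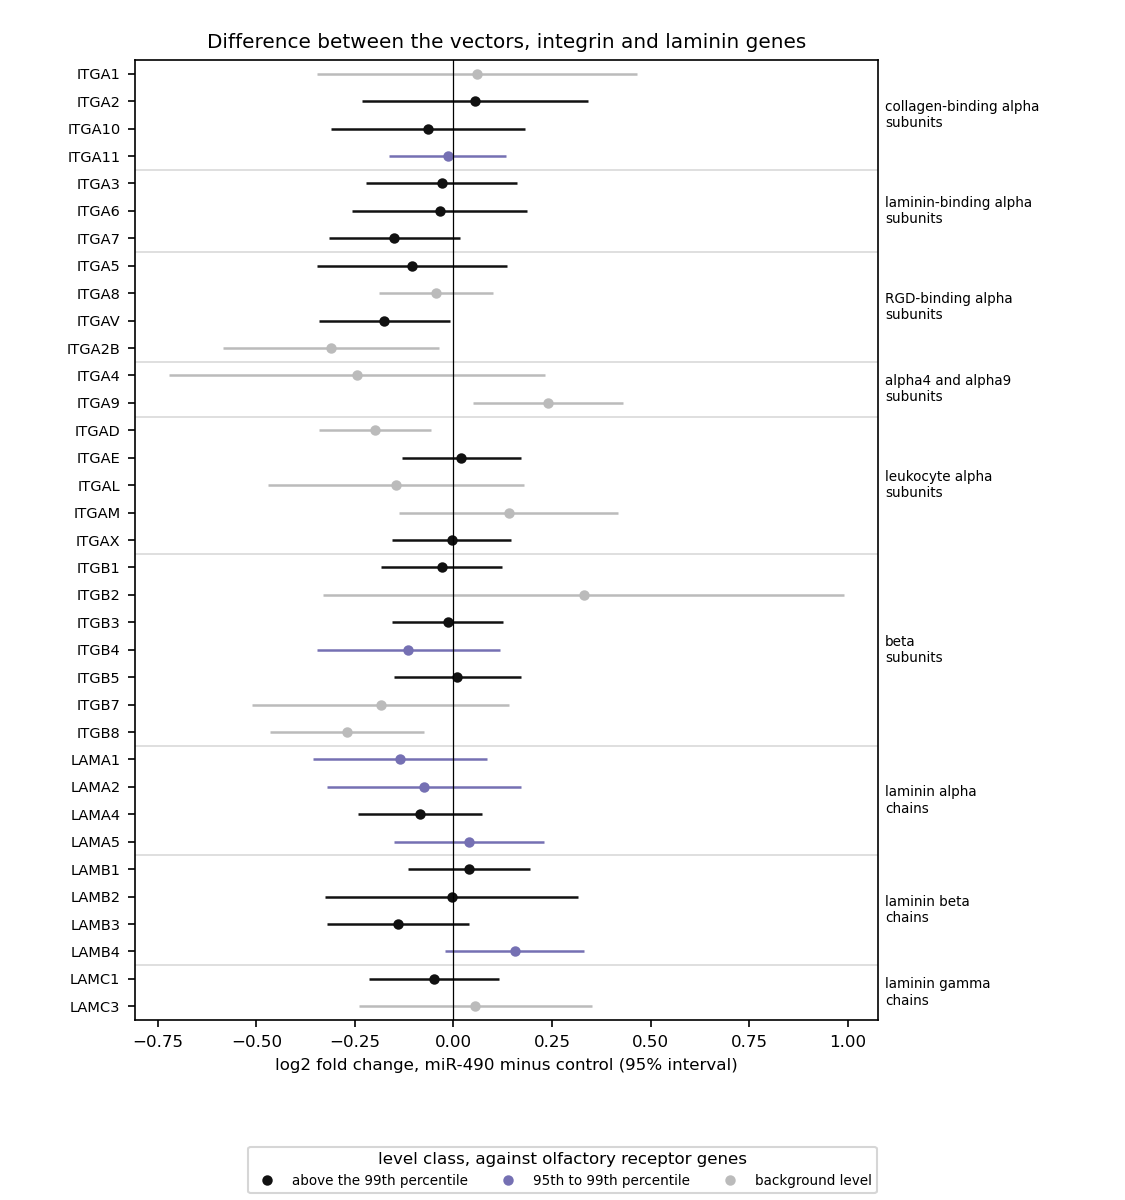
Log2 fold change of each gene, miR-490 minus control, with its 95% confidence interval from limma (2 arrays a group), coloured by level class. ITGAV is the only gene above background whose interval, -0.341 to -0.009, leaves out 0, and no gene had an adjusted p under 0.05.

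ITGAV, the alpha subunit common to the vitronectin receptors, had the largest difference among the clear genes. It averaged 10.84 ± 0.028 (SD, n = 2) in controls and 10.665 ± 0.064 (SD, n = 2) with miR-490. The log2 fold change was -0.175 ± 0.062 (SE; interval -0.341 to -0.009), a fold of 0.886, with an unadjusted limma p of 0.043 and an adjusted p of 0.785. The difference did not pass the threshold. All 5 ITGAV probe sets were above background and had lower means with miR-490, by log2 fold changes of -0.24 to -0.09. The sets read the same 4 RNA samples and can share probes, so they are not 5 separate measurements. With any 1 array left out, the log2 fold change lay between -0.22 and -0.13 and the unadjusted p between 0.047 and 0.138. Its clear beta partners differed less: ITGB3 by -0.015 (interval -0.156 to 0.126), ITGB5 by 0.010 (-0.152 to 0.172) and ITGB1 by -0.030 (-0.184 to 0.124).

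For the fibronectin receptor subunit ITGA5 the log2 fold change was -0.105 (interval -0.346 to 0.136; adjusted p 0.889 with limma). Of its 4 probe sets, 3 had lower means with miR-490 and the other was 0.05 higher. For the laminin-binding subunits the values were -0.150 for ITGA7 (-0.317 to 0.017; adjusted p 0.785), -0.030 for ITGA3 and -0.035 for ITGA6. ITGA7 had 7.20 ± 0.042 (SD, n = 2) in controls and 7.05 ± 0.057 (SD, n = 2) with miR-490, and a single probe set. The collagen-binding subunits ITGA2 (0.055, interval -0.232 to 0.342) and ITGA10 (-0.065, interval -0.310 to 0.180) had intervals that held 0. Neither sign was stable: ITGA2 was at -0.06 on its other set and -0.085 without control replicate 1, and ITGA10 was at 0.055 and 0.015 on its other sets and 0.03 without control replicate 2. ITGAE differed by 0.020 and ITGAX by -0.005.

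Among the background genes the 4 with an unadjusted p under 0.05 had log2 fold changes of -0.310 for ITGA2B (interval -0.584 to -0.036), -0.200 for ITGAD (-0.342 to -0.058), -0.270 for ITGB8 (-0.466 to -0.074) and 0.240 for ITGA9 (0.049 to 0.431). All had an adjusted limma p of 0.785 or more. Other sets of the same genes did not show differences of that size: those of ITGA2B were at -0.005 and 0.055, those of ITGA9 at 0.03 and 0.06, and those of ITGB8 between -0.18 and 0.09. Of the 6 leukocyte markers, 2 were above background (LCP1 at 7.69 or more and CORO1A). The log2 levels of these 6 markers summed to 25.60 to 26.13 in controls and 24.95 to 25.03 with miR-490. Such a sum is not an amount of RNA or a content of cells. A part of the leukocyte markers in the ITGAD value was not tested, and their defining members PTPRC, CD3E, MS4A1 and CD14 were at background. ITGB2 had the largest positive value of the 35, 0.330, with an interval of -0.33 to 0.99. That value rests on the lower control array: it was -0.01 without control replicate 1 and 0.67 without control replicate 2.

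For the laminins the vascular chain LAMA4 gave a log2 fold change of -0.085 (interval -0.242 to 0.072), LAMB1 0.040, LAMB2 -0.005 and LAMC1 -0.050 (-0.214 to 0.114), so each chain of laminin 411 and 421 had an interval that held 0. LAMB3 gave -0.140 (-0.320 to 0.040; adjusted p 0.795 with limma), from 7.78 ± 0.028 (SD, n = 2) in controls to 7.64 ± 0.085 (SD, n = 2) with miR-490. Its other probe set had the same sign. Of the intermediate chains, LAMA1 was at -0.135, LAMA2 at -0.075, LAMA5 at 0.040 and LAMB4 at 0.155 (-0.020 to 0.330). The signs thus differed within each of the alpha and beta chain groups.

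Most genes could be read on more than 1 probe set: 25 had several, with 66 further sets. In 42 of these 66 the sign of the log2 fold change was that of the brightest set, and in 24 it was not. Of the 18 genes with 3 or more sets, 3 (ITGA3, ITGAV and ITGB1) had lower means with miR-490 on every set. ITGA9, at background, had higher means on all 3 of its sets. The share of all genes with the same sign on every set is not given here. The sets of LAMA4 and LAMC1 were mixed: LAMA4 had 0.04, 0.21 and 0.235 on its other sets against -0.085 on the brightest, and LAMC1 had 0.35 on a background set (mean level 4.175) while the other 4 lay between -0.125 and -0.050. Over all 101 sets, in a fit of every single-gene set, 9 had an unadjusted p under 0.05, beside 5.19% of all 44988 such sets. Of the 9, 5 were lower and 4 higher with miR-490, and 0 passed after adjustment with limma.

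**Figure D4:**
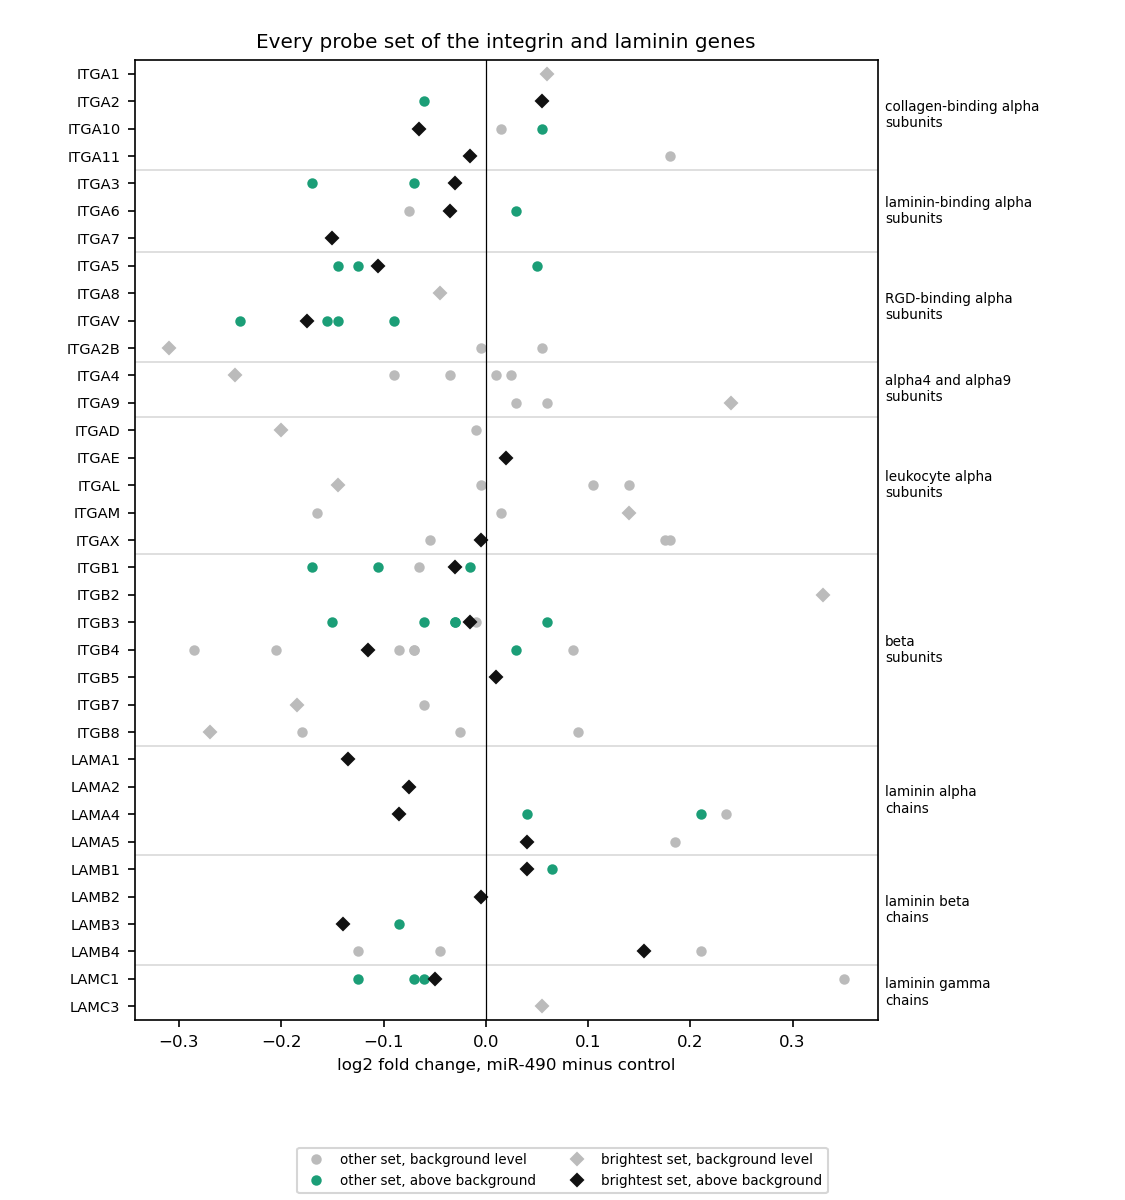
Log2 fold change, miR-490 minus control, of each of the 101 probe sets, 1 gene per line, with diamonds for the brightest set that represents the gene and circles for its other sets (grey at background). All 5 ITGAV sets lie left of 0, between -0.24 and -0.09, whereas the sets of LAMA4 and ITGB3 lie on both sides.

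The other genes of the pathway were taken from lists of adaptors, signalling proteins, ligands and further laminin receptors, of which 61 of 66 genes were measured and 5 were not analysed here. None passed the threshold: with limma 0 of 61 had an adjusted p under 0.05, and 8 (13.1%) had an unadjusted p under 0.05, 7 lower and 1 higher, beside the shares of all genes given above. The 8 became 3 when a gene's probe sets were averaged (5.29% of all genes) and 4 with the replicate number as a block (4.92% of all genes). With the arrays centred on their medians the count was 9 (6.21% of all genes), and with an intensity trend it was 12 (6.04% of all genes). In this list 35 genes had a lower and 25 a higher mean with miR-490, and the median log2 fold change was -0.03. The genes named with these lists in the next paragraphs were above background, and their adjusted limma p was 0.785 or more. Of them, FERMT1, ICAM1, VTN, BCAM and COL18A1 were only intermediate, a level not read here as a sign of expression.

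Of the 17 activators and actin linkers, 9 had lower and 8 higher means, and their median log2 fold change was -0.005. The tensin gene TNS3, whose product ties beta tails to actin, read 8.17 and 8.26 in controls and 8.05 and 8.01 with miR-490 (log2 fold change -0.185). The kindlin gene FERMT1 read 5.15 and 5.33 against 5.03 and 4.83 (-0.310), and PARVB, encoding a parvin of the complex with integrin-linked kinase, read 7.23 and 7.30 against 7.37 and 7.40 (0.120). The direction thus differed between linkers. The 9 genes of focal adhesion signalling had 3 lower and 6 higher means, with SRC at 0.135, the paxillin relative TGFB1I1 at 0.105 and the exchange factor ARHGEF7 at 0.100, and 0 had an unadjusted p under 0.05.

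Among 9 integrin inhibitors and trafficking genes, 6 had lower and 3 higher means. SHARPIN, an inhibitor of integrin activation, read 7.14 and 7.15 in controls and 7.39 and 7.37 with miR-490 (log2 fold change 0.235, interval 0.093 to 0.377). The tetraspanin gene CD9, whose product associates with integrins in the membrane, read 9.24 and 9.24 against 9.03 and 8.98 (-0.235, interval -0.383 to -0.087). The endocytic adaptor gene DAB2 read 8.91 and 8.94 against 8.77 and 8.80 (-0.140). All 3 kept the groups apart, but they were picked by their small p, so this adds no support. In the list 7 of 9 genes did so (77.8%), against 32.6% of all genes, and no test was made of the list. None of the 9 passed after adjustment.

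Of 15 further integrin ligands, 11 had lower and 4 higher means with miR-490, and the median over the list was -0.05 (log2). FN1, SPP1 and TNC, encoding fibronectin, osteopontin and tenascin-C and named outside the rule, were clear, FN1 at 13.43 to 13.49 on the 4 arrays. THBS2, a thrombospondin gene, read 7.56 and 7.44 in controls and 7.21 and 7.25 with miR-490 (-0.270), and ICAM1, the leukocyte integrin ligand gene, read 5.30 and 5.34 against 4.93 and 5.10 (-0.305), with VTN at 0.105. The 7 basement membrane partners of laminin had 5 lower and 2 higher means, and NID2, AGRN and COL18A1 were at -0.095, -0.075 and -0.115. Among 4 other laminin receptors, SDC4 was at -0.150, BCAM at 0.120 and SDC1 at 0.010. Neither of these last lists had a gene with an unadjusted p under 0.05.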

How the data were processed

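Biotin-labelled total RNA of U87MG cells was read on Affymetrix PrimeView arrays, with groups and replicate numbers from the sample titles. The authors deposited log2 expression per probe set made with RMA, per the submitters' processing notes; no version is named in the sources used. RMA makes the arrays' distributions alike, so a shift of most transcripts cannot be seen, and low differences can be compressed. No detection calls or scan dates entered the work, and no batch was tested.

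The platform annotation gives 1 symbol to 44988 of 49293 probe sets, several to 1832 and none to 2473; 44961 matched the RefSeq gene table by Entrez ID. The brightest single-gene set stood for each of 18132 genes, with no filter on dim genes. Groups were compared with limma 3.58.1 in R 4.3.3 (lmFit, eBayes, no block, 2 residual and 2.45 prior degrees of freedom). Tests were two-sided and adjusted over all genes by Benjamini-Hochberg, at a threshold of 0.05. The number of arrays limits precision: the median standard error was 0.0725. The fit was tested on simulated data.

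The genes, the lists and the rule for named genes were chosen with earlier results of these data known. That rule names every integrin and laminin gene, and up to 3 genes per pathway list with the smallest p among those above background. Values on each array are given for the clear integrin and laminin genes, ITGB4 and LAMB4, and ranges for most others. FN1, SPP1, TNC and VCAM1 were named outside the rule. The lists were activators and linkers, focal adhesion signalling, inhibitors and trafficking, other ligands, basement membrane partners, other laminin receptors and 5 sets of cell type markers. Alternatives were other levels, priors, normalisation, probe set choices, a replicate block and leaving out each array. Sequences came from RefSeq (GRCh38.p14). Same-numbered arrays did not deviate together (r = -0.0264).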

Additional observations from a re-analysis of the deposited data

How the results depend on the processing

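Under every alternative run, 0 integrin or laminin genes, 0 of all genes and 0 pathway genes passed the adjusted threshold with limma. With the replicate number as a block, 0 integrin or laminin genes passed, 2 had an unadjusted p under 0.05 (4.92% of all genes did), and same-numbered arrays shared only a number (r = -0.0264). The median log2 fold change of the 35 genes was -0.005 when a gene's probe sets were averaged. It ranged from -0.06 (without control replicate 1) to -0.02 (without miR-490 replicate 2) when 1 array was left out; where 1 array was left, it was assumed to vary like the other group. Groups did not overlap for 5 of the 18 genes above the median level (34.4% of all such genes) and for 32 of 101 probe sets (31.3% of all). Over all alternatives on 35 genes, 0 to 5 had an unadjusted p under 0.05, and with an intensity trend 3 did. With keratin-associated protein genes as the yardstick, 13 of the 35 genes were above background, fewer than the 17 called clear by olfactory receptors. The clear calls, and the pairs and trimers read from them, thus depend on the yardstick. The share of all genes above this other yardstick is not given here. Of 368 recomputed log2 fold changes of single genes, 28 in 18 genes changed sign, and 0 of these genes were called. The cause of these shifts was not tested.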

Other observations

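Among the pathway genes outside the rule for named genes, VCAM1, the ligand of integrins with the alpha4 subunit, was picked out after its values were seen. It read 4.68 and 4.86 in controls and 4.43 and 4.24 with miR-490, and did not pass the threshold. It was at background, as the last value lay under the 95th percentile of that array, 4.298. A single ITGB1 set had a mean level of 2.262 while the other 4 lay between 10.170 and 13.350, and 4 genes with several sets (ITGA11, ITGAX, LAMA5 and LAMB4) had 1 set above background.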
